A study of Mus musculus with 12 samples.

Results

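The hypothalamic patterning transcription factors are a set of 44 genes, chosen by name from the 43280 gene rows of the count table as factors that set up or mark hypothalamic regions and nuclei. Their mRNA was measured in the hypothalamus of 12 male C57/Bl6 pups at postnatal day 6, of which 6 were controls and 6 had undergone modified maternal separation (MMS). On each day of MMS, pups lay on a heating pad away from the dam and were turned onto their backs again each time they righted themselves, and brains were taken as soon as the last session ended. Litters were split between the groups, and the labels name no transgene or drug. Blocks of hypothalamus were dissected by landmarks at the optic chiasm in front and the mamillary recess behind. The labels do not give litters, so the p-values below treat pups as independent.

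The hypothalamus is built from small nuclei, each of which keeps expressing its own combination of transcription factors after it has formed. Nkx2-1, Six3 and Six6 mark the early hypothalamic field, Otp and Sim1 are needed for the neuroendocrine neurons of the paraventricular nucleus, Nr5a1 and Fezf1 for the ventromedial nucleus, and Foxb1 for the mammillary body at the posterior end. In bulk tissue such as these blocks, fewer cells of a type and less RNA per cell cannot be told apart.

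Each library was made from the 3′ ends of polyadenylated transcripts, so a transcript gives about the same number of reads whatever its length. Levels are in CPM, the usual scaling of counts to a common library total, with totals adjusted by TMM, a factor that keeps a few abundant genes from shifting all others. Totals ran from 3765759 to 6560620 counts in controls and from 3218777 to 5344080 in MMS libraries. MMS 2 and MMS 4 stood apart, with scores of 57.8 and 46.3 on the first principal component of all genes (30.4% of variance), where the other 10 libraries lay between -14.4 and -3.04. For many factors, results are therefore also given without these libraries. Hypothalamic markers (13 genes, mostly neuropeptides) summed to 1094 to 1961 CPM in controls and 1386 to 1890 CPM in MMS, with the most counts in Pmch, Oxt and Avp. Kiss1 had 0 counts in every library and Agrp had 0 in MMS 2. Of 8 midbrain and hindbrain markers and 7 pituitary markers 0 passed the count filter, with sums of at most 7.88 and 42.1 CPM per library. Telencephalic markers (8 genes) summed to 91.8 to 119 CPM in controls and 80.0 to 132 CPM in MMS libraries. Thalamic markers (7 genes) summed to 207 to 734 CPM in controls and 227 to 606 CPM in MMS. Choroid plexus markers (5 genes) summed to 1764 CPM in control 3, of which Ttr made up 1735 CPM, and to 9.99 to 42.4 CPM in the other 11 libraries.

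The factors were readily measured at this depth. All but 3 of the 44 had at least 1 count in every library, and together they took 2278 to 2493 CPM of each control library and 2320 to 2456 CPM of each MMS library. Of the 44, 8 had a mean of at least 100 CPM, among them Tcf4, Nr2f2, Zfhx3 and Nr2f1, and 16 had a mean under 10 CPM. The default filter of edgeR passed 41. Vax1 (73 counts in all) and Prdm12 (131 counts in all) did not pass. Bsx, a homeobox gene of arcuate and dorsomedial feeding neurons, had 0 counts among the 55184254 of all libraries, which allows a level of up to 0.0544 CPM, for counting error only.

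The first comparison asked whether any patterning factor differed between MMS and control pups. With the quasi-likelihood test of edgeR, adjusted by the Benjamini-Hochberg method over all 13104 genes tested, 0 of the 41 factors passed 0.05, as against 0 of all genes (0%). DESeq2 placed 7 genes and limma-voom 0 past the threshold, with 0 factors in either, and the lowest adjusted p of any factor over all alternative fits was 0.245, for Lhx1 without MMS 5. At an unadjusted p under 0.05 there were 5 factors (12.2%), against 9.08% of all genes tested, so the share of factors lay near that background. Lhx1, Hmx3 and Tcf4 were lower in MMS (4.4% of all genes were lower at this level) and Fezf1 and Meis2 were higher (4.68% of all genes). The number was 3 without control 4 or without MMS 2, 8 without MMS 5 and 2 without both MMS 2 and MMS 4, which were Fezf1 and Onecut2. Over all genes 1190 were at this level in the main fit, and that number moved in the same direction in each of these fits. It was 994 of 13292 genes tested without control 4 and 700 of 13271 without MMS 2. It was 1804 of 13230 without MMS 5 and 674 of 13407 without both MMS 2 and MMS 4. The factors tested in these fits were 42, 42, 42 and 41. The changes in the number of factors between fits are therefore not read as results about the factors. There were 0 factors in which the groups did not overlap, against 0.389% of all genes. The log2 fold change was above 0 in 24 of 41 factors, with a median of 0.04, where the median over all genes was 0.0009 and 50.1% of genes lay above 0.

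**Figure D1:**
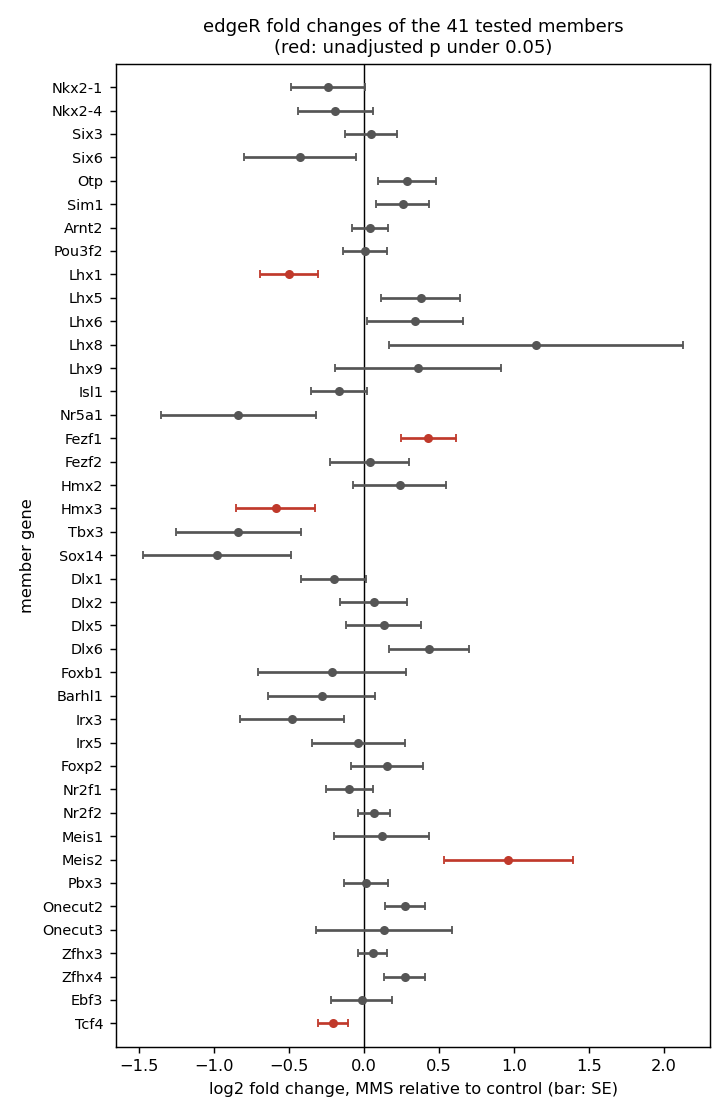
Log2 fold changes of MMS relative to control for the 41 factors that passed the count filter, in order of their role, with standard errors from edgeR (6 libraries per group). The 5 red points had an unadjusted p under 0.05, 3 of them lower and 2 higher in MMS.

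The promoters of Lhx1, Fezf1, Hmx3 and Meis2, from RefSeq (build GRCm38.p6, 250 bases before to 50 after the start), are shown because these factors were at an unadjusted p under 0.05, and that of Tcf4, the other such factor, is not shown. The libraries measured transcripts and not promoters. That of Hmx3 lies on the plus strand at chr7:131542713-131543012, and the others on the minus strand at chr11:84525485-84525784, chr6:23248215-23248514 and chr2:116064570-116064869. Each reads 5′ to 3′ on the gene's strand, and capitals mark the TATA box TATAAA, the CAAT box CCAAT and the GC box GGGCGG, searched on both strands.
Lhx1: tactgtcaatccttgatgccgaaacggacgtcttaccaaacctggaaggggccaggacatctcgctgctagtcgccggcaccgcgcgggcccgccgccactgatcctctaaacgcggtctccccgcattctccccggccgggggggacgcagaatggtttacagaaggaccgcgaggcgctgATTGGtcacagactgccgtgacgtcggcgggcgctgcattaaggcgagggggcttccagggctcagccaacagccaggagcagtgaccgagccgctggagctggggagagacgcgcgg
Fezf1: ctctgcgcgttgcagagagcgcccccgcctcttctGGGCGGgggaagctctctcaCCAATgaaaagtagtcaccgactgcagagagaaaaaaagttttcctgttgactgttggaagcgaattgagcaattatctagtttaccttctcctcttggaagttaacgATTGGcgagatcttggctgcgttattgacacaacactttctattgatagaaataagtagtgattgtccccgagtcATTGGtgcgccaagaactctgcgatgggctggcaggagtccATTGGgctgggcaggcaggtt
Hmx3: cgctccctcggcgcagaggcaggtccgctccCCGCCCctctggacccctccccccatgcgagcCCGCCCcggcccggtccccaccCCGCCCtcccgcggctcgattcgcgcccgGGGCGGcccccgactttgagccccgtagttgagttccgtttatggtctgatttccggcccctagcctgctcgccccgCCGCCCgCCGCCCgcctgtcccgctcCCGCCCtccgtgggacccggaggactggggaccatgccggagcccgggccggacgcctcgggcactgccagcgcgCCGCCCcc
Meis2: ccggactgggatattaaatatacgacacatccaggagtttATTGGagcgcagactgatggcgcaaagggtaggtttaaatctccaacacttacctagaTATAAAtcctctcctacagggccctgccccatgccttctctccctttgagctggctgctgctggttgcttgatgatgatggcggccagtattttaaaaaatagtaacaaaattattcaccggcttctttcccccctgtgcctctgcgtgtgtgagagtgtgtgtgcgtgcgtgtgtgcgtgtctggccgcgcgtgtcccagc
Fezf1 held 4 matches to the CAAT box and 1 to the GC box, Meis2 held 1 to the TATA box and 1 to the CAAT box, Lhx1 held 1 to the CAAT box, and Hmx3 held 0, 0 and 8 to the TATA, CAAT and GC boxes. The promoter table matched 31 of the 44 factors through 36 promoters. The CAAT box was found in 18 of these 36 (37.4% of all 32851 promoters), the GC box in 19 (35.7% of all) and the TATA box in 4 (13.6% of all).

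Among the early field factors, Nkx2-1, a homeobox gene without which the ventral hypothalamus does not form, ranged from 10.5 to 29.2 CPM in controls (median 23.6) and from 10.7 to 30.5 CPM in MMS (median 16.3). Its close relative Nkx2-4 had its lowest values in the same libraries, at 12.5 CPM in control 1 and 13.2 CPM in MMS 2, and its values in control 5 and MMS 4 were again the highest of each group, at 38.4 and 34.1 CPM. Six3, which represses Wnt signalling in the anterior neural plate, had medians of 124 CPM in controls and 128 CPM in MMS, and a log2 fold change of 0.04 with its SE at 0.17 (adjusted p of 0.944 in edgeR). Six6, a related factor of the ventral hypothalamus, pituitary and retina, ran from 8.94 to 23.6 CPM in controls (median 17.2) and from 3.76 to 24.2 CPM in MMS (median 12.2). It was lowest in MMS 2 (3.76 CPM) and MMS 4 (5.85 CPM), and the other 10 libraries lay between 8.94 and 24.2 CPM. The log2 fold change of Six6 was -0.43 (SE 0.37, adjusted p of 0.714 in edgeR) and went to -0.019 without these libraries. On leaving out 1 library it ran from -0.68 (without MMS 3) to -0.24 (without MMS 2). For Nkx2-1 it was -0.24 (SE 0.25, adjusted p of 0.756 in edgeR), and ran from -0.47 without MMS 4 to -0.12 without control 5.

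Otp, Sim1, Arnt2 and Pou3f2 act together in the paraventricular and supraoptic nuclei, where Sim1 pairs with Arnt2 and both lie upstream of Pou3f2. All 4 had a positive log2 fold change and 0 had an unadjusted p under 0.05. Otp ran from 46.1 to 98.6 CPM in controls (median 52.5) and from 56.4 to 98.7 CPM in MMS (median 65.9), with a log2 fold change of 0.29 with its SE at 0.19 (adjusted p of 0.635 in edgeR). Control 6, MMS 3 and MMS 6 stood highest at 98.6, 98.7 and 96.3 CPM, and the next was MMS 1 at 71.2 CPM. Without control 6 the log2 fold change of Otp was 0.49, and without MMS 3 it was 0.19. Sim1 ran from 8.18 to 14.1 CPM in controls (median 11.6) and from 11.2 to 16.6 CPM in MMS (median 13.9), and no control reached the values of 3 of 6 MMS libraries (log2 fold change 0.26, SE 0.18, adjusted p of 0.637 in edgeR). Arnt2 (0.04, SE 0.12) and Pou3f2 (0.0073, SE 0.15) had the smallest log2 fold changes of the 4, and their group means were 169.9 ± 23.7 against 175 ± 29.3 CPM and 41.7 ± 7.71 against 41.7 ± 6.91 CPM, control against MMS (SD, n = 6 per group).

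The LIM homeodomain factors held both the lowest p-value and the widest spread. Lhx1, a factor of the mammillary region and of suprachiasmatic neurons (chromosome 11, 84518284 to 84525535, minus strand, GENCODE M21 on mm10), ran from 32.7 to 76.4 CPM in controls (median 61.1) and from 27.4 to 56.7 CPM in MMS (median 41.6). The groups overlapped, since control 6 was the lowest but 1 of all libraries and only MMS 2 lay below it. Its log2 fold change was -0.50 (SE 0.20, unadjusted p of 0.0195 and adjusted p of 0.543 in edgeR), and -0.32 with an unadjusted p of 0.132 in edgeR without MMS 2 and MMS 4. Lhx1os, a noncoding gene on the opposite strand that begins inside the Lhx1 promoter window printed above (chromosome 11, 84525660 to 84535831), had a log2 fold change of 0.06 with its SE at 0.28 (adjusted p of 0.955 in edgeR). MMS 4 had 72.9 CPM of Lhx1os, the second highest of all libraries after control 5 at 80.1 CPM, where Lhx1 itself was at 34.4 CPM.

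Lhx6 and Lhx8 mark GABAergic and cholinergic lineages that arise in the basal telencephalon and preoptic area, and Lhx6 also marks neurons of the hypothalamic zona incerta region. Lhx8 had 0 counts in control 2 and control 5, 9.26 CPM in control 1 and 23.6 CPM in MMS 2, and the other 8 libraries lay between 0.839 and 6.39 CPM. Lhx6 was highest in the same libraries, at 29.8 CPM in MMS 2 and 22.8 CPM in control 1, followed by MMS 4 at 18.4 CPM. The log2 fold change of Lhx8 was 1.15 with an SE of 0.98 (edgeR adjusted p = 0.714), and it was -0.32 without MMS 2 and MMS 4 and 0.15 without MMS 2 alone, and 1.94 without control 1. That of Lhx6 was 0.34 (SE 0.32, adjusted p of 0.738 in edgeR) and -0.15 without MMS 2 and MMS 4, and ran from 0.059 without MMS 2 to 0.62 without control 1.

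Lhx9, a factor of the thalamus, the lateral hypothalamus and early Hcrt neurons, ran from 3.09 to 38.1 CPM in controls (median 8.32) and from 7.09 to 24.7 CPM in MMS (median 18.6), with a log2 fold change of 0.36 with its SE at 0.55 (adjusted p of 0.846 in edgeR). Without control 1 this was 1.06, and without control 5 it was 0.15. Its level moved with the sum of the thalamic markers, in which Tcf7l2 varied most (68.8 to 492 CPM). The 5 libraries with the highest thalamic sums, which were control 1, control 4, MMS 1, MMS 2 and MMS 5 with 478 to 734 CPM, had 13.8 to 38.1 CPM of Lhx9. Of the other 7, MMS 4 had 19.7 CPM of Lhx9 at a thalamic sum of 310.4 CPM, and the remaining 6 had 3.09 to 9.06 CPM at sums of 207 to 279 CPM. All 7 thalamic markers passed the count filter, but they did not all follow Lhx9. Tcf7l2, Gbx2, Ntng1, Plekhg1 and Lef1 were highest in control 1, as Lhx9 was. Rora was highest in MMS 3 (49.4 CPM) and Prkcd in MMS 1 (8.19 CPM), where Lhx9 was at 7.27 and 17.6 CPM. The part of the thalamic markers in the level of Lhx9 was not tested. Isl1, which is needed for arcuate Pomc neurons, ran from 30.0 to 51.7 CPM in controls and from 22.5 to 52.7 CPM in MMS (log2 fold change -0.17, SE 0.19, adjusted p of 0.780 in edgeR). For Isl1 it ran from -0.29 without MMS 3 to -0.066 without MMS 6.

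The 3 ventromedial factors had log2 fold changes of either sign. Fezf1 (chromosome 6, 23245044 to 23248362, minus strand), a zinc finger repressor, ran from 18.3 to 29.3 CPM in controls (median 24.1) and from 21.0 to 44.5 CPM in MMS (median 32.4). MMS 2, MMS 3 and MMS 6 lay above all controls at 36.5, 44.5 and 40.9 CPM, and the other 3 MMS libraries were within the range of the controls. The log2 fold change was 0.43 (SE 0.19, unadjusted p of 0.0308 and adjusted p of 0.543 in edgeR) and 0.47 without MMS 2 and MMS 4, with an unadjusted p of 0.0188 and an adjusted p of 0.961 in edgeR. Nr5a1, the nuclear receptor SF-1 that defines ventromedial neurons, was low throughout, with 0 to 61 counts per library. MMS 4 had 0 CPM of it, MMS 2 had 1.34 CPM, MMS 5 had 2.16 CPM, and values were 3.75 to 4.83 CPM in the other MMS libraries, and 2.37 to 9.41 CPM in controls. The fold change on the log2 scale was -0.84 (SE 0.52; adjusted p in edgeR 0.610), and -0.34 without MMS 2 and MMS 4 and -0.48 without control 5. Fezf2, better known from cortical projection neurons, was at 7.58 ± 2.32 CPM in controls and 7.93 ± 2.73 CPM in MMS (SD, n = 6 per group).

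The arcuate and tuberal factors had the lowest median log2 fold change of the role groups, at -0.71 over the 4 tested of 6 listed, and 3 of the 4 were below 0. Hmx3 (chromosome 7, 131542867 to 131544925, plus strand), a homeobox gene of the tuberal hypothalamus, shared with Sox14 the highest number of MMS libraries beyond all controls. Controls ran from 3.86 to 6.25 CPM (median 4.50) and MMS from 2.66 to 3.98 CPM (median 2.82), with 4 of 6 MMS libraries below all controls, on 9 to 28 counts per library. Its log2 fold change was -0.59 (SE 0.27, unadjusted p of 0.0373 and adjusted p of 0.543 in edgeR) and lay between -0.66 and -0.51 on leaving out any 1 library. Without MMS 2 and MMS 4 it was -0.48, with an unadjusted p of 0.155 in edgeR. Hmx2, its neighbour on the same chromosome, had medians of 5.23 CPM in controls and 6.19 CPM in MMS and a log2 fold change of 0.24 with its SE at 0.31 (adjusted p of 0.810 in edgeR), which ran from 0.069 without control 1 to 0.40 without control 3.

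Tbx3, a T-box factor that maintains the identity of arcuate peptide neurons, ran from 7.75 to 27.3 CPM in controls (median 17.9) and from 2.48 to 18.8 CPM in MMS (median 9.35). The 2 lowest libraries were again MMS 4 (2.48 CPM) and MMS 2 (5.10 CPM). The log2 fold change of Tbx3 was -0.84 (SE 0.42, adjusted p of 0.560 in edgeR) and -0.42 without both. The arcuate peptide Agrp was at 0 and 0.709 CPM in MMS 2 and MMS 4, against 2.58 to 34.3 CPM in the other 10 libraries, and Pomc was at 8.06 and 3.19 CPM, against 11.8 to 41.8 CPM. Summed ependymal markers (7 genes) were at 14.5 CPM in MMS 2 and 36.01 CPM in MMS 4, against 78.1 to 183 CPM in the other 10, and the part of these differences in the values of Tbx3 was not tested. Sox14, a marker of a GABAergic group in the dorsomedial and ventral diencephalon, ran from 0.537 CPM in MMS 2 to 15.6 CPM in control 5. In Sox14, as in Hmx3, 4 of 6 MMS libraries lay below all controls. Its log2 fold change was -0.98 (SE 0.49, adjusted p of 0.556 in edgeR), and -0.56 without MMS 2 and MMS 4.

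**Figure D2:**
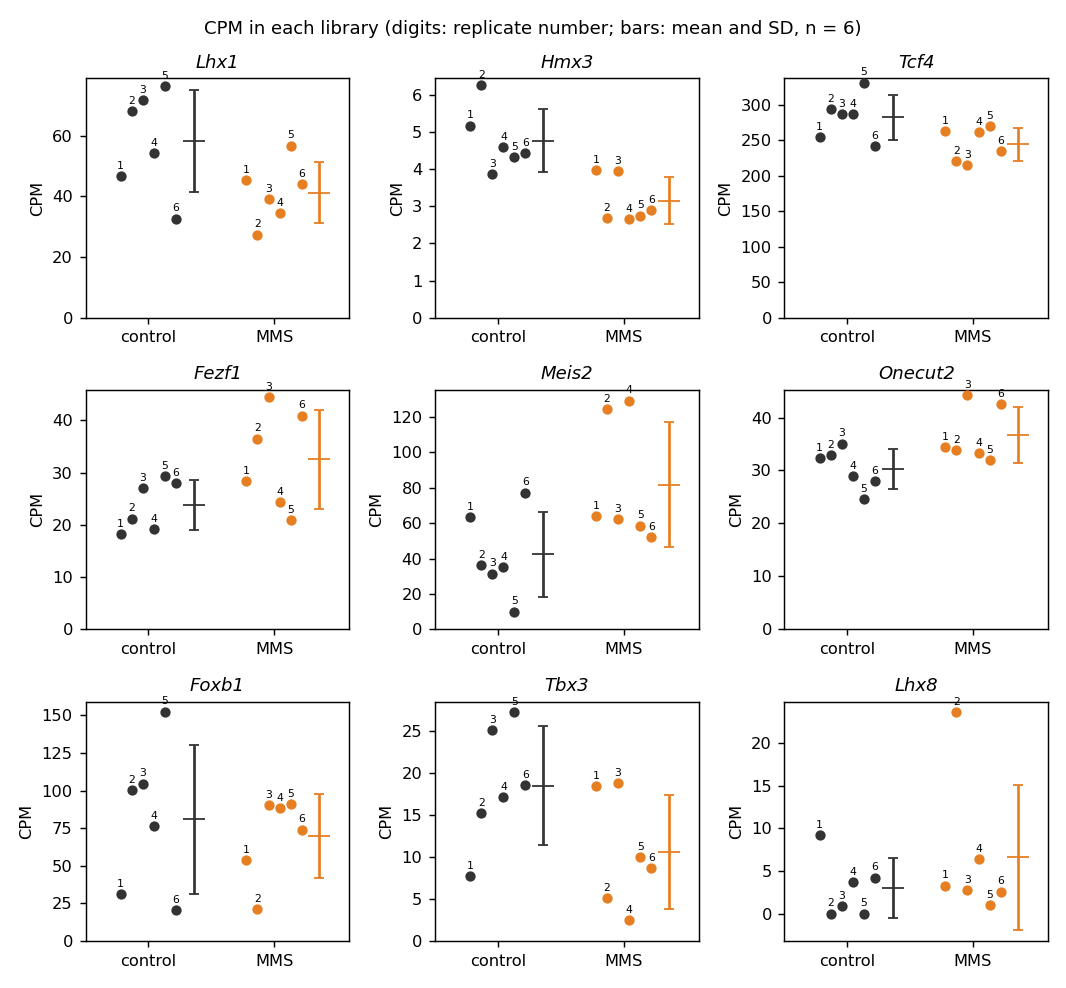
CPM of 9 factors in each of the 12 libraries, with replicate numbers beside the points and the mean and SD of each group (n = 6) beside them. The groups overlap in every panel, and MMS 2 and MMS 4 carry the 2 highest values of Meis2 and the 2 lowest of Tbx3.

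The Dlx genes drive GABAergic differentiation and lie in convergent gene pairs. Dlx1 was the most abundant of the 4, with medians of 161 CPM in controls and 156 CPM in MMS, and its values of 98.3, 91.9 and 93.5 CPM in MMS 2, MMS 4 and control 5 stood below the other 9 libraries at 148 to 245 CPM. Its log2 fold change was -0.20 (SE 0.22, adjusted p of 0.768 in edgeR), and 0.027 without MMS 2 and MMS 4 and from -0.32 (without control 5) to -0.046 (without control 6) on leaving out 1 library. Dlx2, its neighbour, was at 27.9 and 25.2 CPM in MMS 2 and MMS 4, in a range of 15.4 to 45.1 CPM over all libraries. Dlx5 was at 5.96 ± 1.5004 CPM in controls and 6.51 ± 1.66 CPM in MMS (SD, n = 6 per group; log2 fold change 0.13, SE 0.25, adjusted p of 0.879 in edgeR). Dlx6 was highest in MMS 2 at 22.3 CPM, where the other 11 libraries lay between 6.86 and 13.98 CPM.

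Of the mammillary and posterior factors, 4 of 5 had a log2 fold change below 0, and the median was -0.21. Foxb1, a forkhead factor of the mammillary body (chromosome 9, 69757710 to 69760940, minus strand), spanned 20.4 CPM in control 6 to 153 CPM in control 5, a ratio of 7.47. Its low libraries were control 6, MMS 2 (21.2 CPM), control 1 (31.0 CPM) and MMS 1 (53.8 CPM), and the other 8 lay at 74.1 CPM or above. Both groups held low and high libraries, and the log2 fold change was -0.21 (SE 0.50, adjusted p of 0.900 in edgeR), or 0.079 without control 5. Barhl1, which marks subthalamic and mammillary neurons, was also lowest among controls in control 6 (2.11 CPM) and highest in control 5 (8.48 CPM), but in MMS 3 it measured 1.82 CPM where Foxb1 was at 90.5 CPM (log2 fold change -0.28, SE 0.36, adjusted p of 0.804 in edgeR). The value of Barhl1 was -0.54 without MMS 2 and MMS 4, and ran from -0.62 without MMS 4 alone to -0.10 without control 5. Irx3, an Iroquois factor, was lowest in MMS 3 too, at 2.42 CPM, with 14.6 CPM in control 3 as its highest value. Foxp2, a forkhead factor found in several diencephalic nuclei, ran from 36.2 to 79.2 CPM in controls and from 29.4 to 75.9 CPM in MMS.

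Among Nr2f, Meis and Pbx factors, Meis2 (chromosome 2, 115863064 to 116065839, minus strand), a TALE homeobox cofactor of GABAergic and striatal lineages, had the largest log2 fold change at an unadjusted p under 0.05. It ran from 10.03 to 77.3 CPM in controls (median 35.9) and from 52.2 to 129 CPM in MMS (median 63.3). MMS 2 and MMS 4 stood highest at 124 and 129 CPM, and the other 4 MMS libraries, at 52.2 to 64.1 CPM, lay within the range of the controls. The log2 fold change was 0.96 (SE 0.43, unadjusted p of 0.0479 and adjusted p of 0.546 in edgeR). Without MMS 2 and MMS 4 it was 0.50, with an unadjusted p of 0.307 and an adjusted p of 0.964 in edgeR. The orphan nuclear receptor Nr2f2 (COUP-TFII) had a biological coefficient of variation between libraries of 14.7%, and its relative Nr2f1 (COUP-TFI) one of 19.97%. Nr2f2 was at 263 ± 40.0 CPM in controls and 276 ± 24.04 CPM in MMS (SD, n = 6 per group; log2 fold change 0.07, SE 0.11, adjusted p of 0.846 in edgeR, and 0.015 without control 5 to 0.15 without control 6). Nr2f1 was at 187 to 381 CPM in controls and 189.7 to 288 CPM in MMS, and Pbx3 at 83.3 to 128 CPM and 83.0 to 149 CPM.

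In the last group, 0 of 6 factors passed after adjustment. Tcf4, a broadly expressed basic helix-loop-helix factor, ran from 242 to 331 CPM in controls (median 286) and from 215 to 269 CPM in MMS (median 248), with 3 of 6 MMS libraries below all controls. Its log2 fold change was -0.21 (SE 0.10, unadjusted p of 0.0483 and adjusted p of 0.546 in edgeR), and -0.20 without MMS 2 and MMS 4, with an unadjusted p of 0.0590 in edgeR. Onecut2, a cut homeobox factor, ran from 24.5 to 35.1 CPM in controls (median 30.6) and from 32.0 to 44.2 CPM in MMS (median 34.1). It had a log2 fold change of 0.27 (SE 0.13, unadjusted p of 0.0519 and adjusted p of 0.552 in edgeR), and 0.34 without MMS 2 and MMS 4, with an unadjusted p of 0.0245 and an adjusted p of 0.961 in edgeR. Zfhx3, a large zinc finger homeobox factor of the suprachiasmatic nucleus, was the steadiest of all 41, at 249.7 ± 20.7 CPM in controls and 259.9 ± 23.6 CPM in MMS (SD, n = 6 per group). Its relative Zfhx4 was at 55.0 to 80.2 CPM in controls and 63.1 to 99.7 CPM in MMS, Ebf3 at 26.8 to 53.0 CPM and 22.1 to 59.2 CPM, and Onecut3 at 0.688 to 5.27 CPM and 1.61 to 3.04 CPM.

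The second comparison took the spread between libraries of the same group. Spread is the biological coefficient of variation (BCV) of edgeR, the variation between libraries beyond counting error with the group means removed, and was read against the trend of all genes at the same expression. It lay above the trend in 31 of 41 factors (75.6%), against 35.6% of all genes. The ratio to the trend had a median of 1.25 over the factors and 0.936 over all genes. More than 2 times the trend was reached by 5 factors, Lhx8, Foxb1, Meis2, Lhx9 and Tbx3 (12.2%), against 1.23% of all genes. Just under that limit stood Six6 (1.97 times) and Sox14 (1.92 times), and Tbx3 was just above it (2.19 times).

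The BCV of Lhx8 was 128%, that of Lhx9 64.4%, of Foxb1 58.4%, of Meis2 50.7% and of Tbx3 48.8%, where the trend gave 31.2%, 22.2%, 16.2%, 16.5% and 22.2%. Without MMS 2 and MMS 4, 85.4% of factors and 36.4% of all genes lay above the trend, and the ratio was 4.57 for Foxb1, 3.72 for Meis2, 3.61 for Lhx8, 3.60 for Lhx9 and 2.59 for Foxp2, which was at 1.73 in all 12 libraries. It was 1.70 for Tbx3, 1.34 for Six6 and 1.10 for Nr5a1, 3 of the 4 factors with their lowest values in MMS 2 and MMS 4. For the fourth, Hmx3, it was 0.82, against 0.67 in all 12. By role, in all 12 libraries, all 5 mammillary and posterior, all 4 early field and all 3 ventromedial factors lay above the trend. This held for 1 of 4 paraventricular factors (Otp) and 3 of 6 in the group of Onecut2 and Tcf4. Some ratios were close to 1, such as 1.01 for Fezf2, 0.98 for Pou3f2 and 0.94 for Arnt2. Without MMS 2 and MMS 4, Arnt2 (1.07) and Pou3f2 (1.03) lay above the trend too, and Sim1 (0.91) below it. Zfhx3 had the lowest BCV, at 13.3%.

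**Figure D3:**
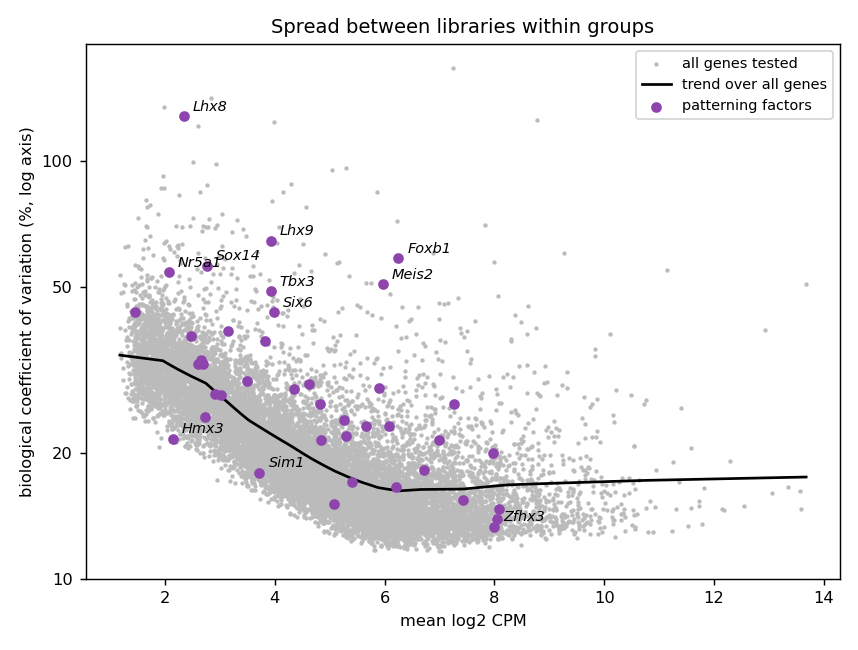
Biological coefficient of variation between libraries within groups (log axis) against mean log2 CPM, for 13104 genes in grey and the 41 factors in purple, with the trend over all genes as a line. Of the factors, 31 lie above the line, and Lhx8, Lhx9, Foxb1, Meis2 and Tbx3 lie above it by more than 2 times.

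The extremes were concentrated in some libraries. Control 5 held the highest value of 7 factors and the lowest of 8, and MMS 4 the highest of 7 and the lowest of 5. MMS 3 held the highest of 7 and the lowest of 5, and control 1 the highest of 3 and the lowest of 7. MMS 2 held the highest of 6 and the lowest of 3. It had the most factors over 1 log2 unit from their mean, with 9, against 7 in control 5 and 5 in MMS 4. The median distance of a factor from its 12-library mean was 0.46 on the log2 scale in control 5, where it was 0.16 over all genes, and 0.46 in MMS 4, against 0.29 over all genes. It was 0.42 in MMS 2, against 0.32 over all genes, and 0.21 in MMS 5, the lowest of any library, against 0.18 over all genes. Control 5 combined the highest Foxb1, Nr5a1, Sox14, Tbx3 and Lhx1 with the lowest Meis2 (10.03 CPM), Lhx9 and Dlx2, and with 0 counts of Lhx8.

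**Figure D4:**
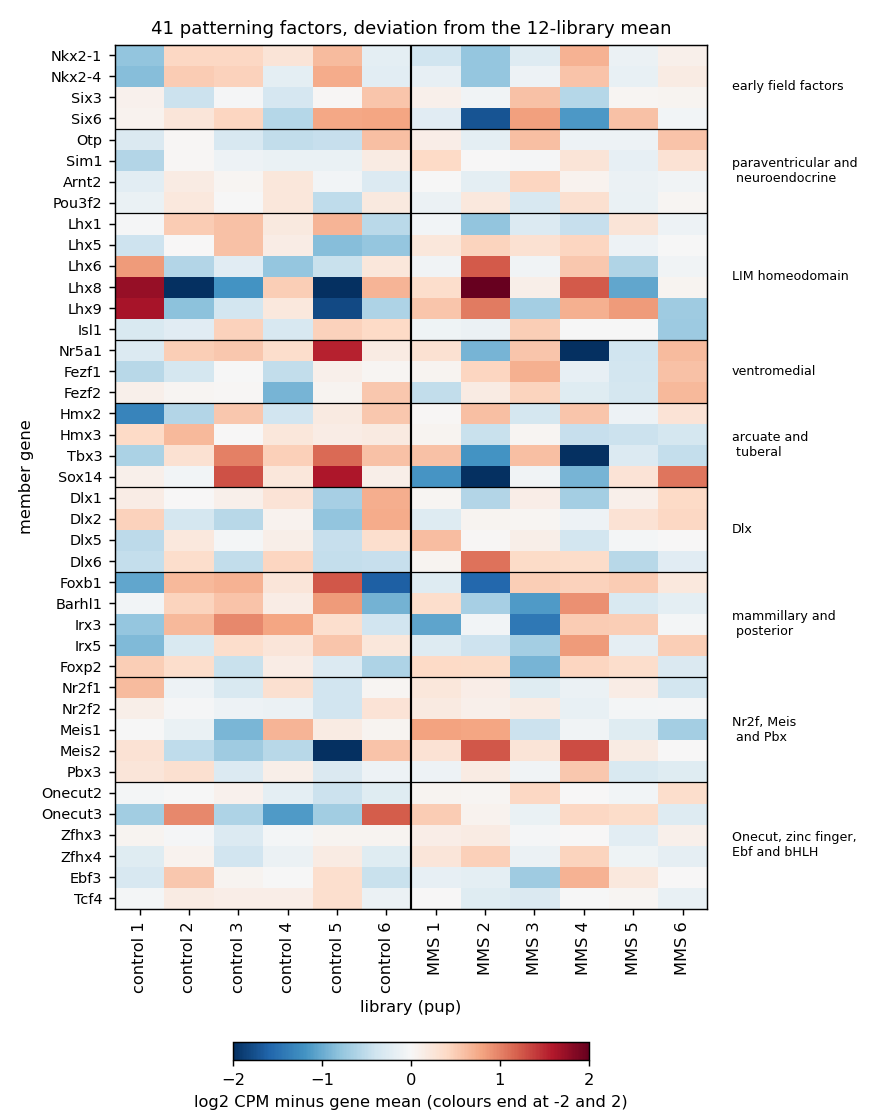
Log2 CPM of each of the 41 factors minus its mean over the 12 libraries, with controls left and MMS right of the vertical line and role groups between horizontal lines (colours end at -2 and 2). Control 5, MMS 2 and MMS 4 show blocks of high and low factors, and the rows of Zfhx3, Nr2f2 and Tcf4 stay pale in all libraries.

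Fixed pairs of factors were correlated across the 10 libraries other than MMS 2 and MMS 4, to see whether factors vary together. Group means were left in, so a difference between the groups can change r. Within the 6 controls alone r ran from -0.71 (Hmx2 and Hmx3) to 0.95 (Foxb1 and Barhl1), and these values were not tested. Of 12 pairs 11 could be computed, since Bsx had 0 counts, and 0 of them passed 0.05 after adjustment over the 11. Nr5a1 and Fezf1 had the largest rho of the 11 (rho = 0.71, permutation p = 0.0276, adjusted 0.164; r = 0.49, permutation p = 0.152, adjusted 0.186), with r = 0.62 without control 5 and MMS 5. For Otp and Sim1, r was 0.61 (permutation p = 0.0586, adjusted 0.152) and rho 0.64 (permutation p = 0.0553, adjusted 0.164), and r was 0.68 without control 6 and MMS 3. Foxb1 and Barhl1 had r = 0.52 (permutation p = 0.120, adjusted 0.186) and rho = 0.59 (permutation p = 0.0811, adjusted 0.164), with r = 0.31 without control 1 and control 6. Hmx2 and Hmx3 had r = -0.49 (permutation p = 0.145, adjusted 0.186) and rho = -0.58 (permutation p = 0.0888, adjusted 0.164), with r = -0.42 without control 1 and control 3. The largest r was that of Dlx1 and Meis2 (r = 0.81, permutation p = 0.0120, adjusted 0.0977; rho = 0.47, permutation p = 0.178, adjusted 0.245). It rested on control 5 and control 6, without which r was 0.0035. Nkx2-1 and Nr5a1 followed (r = 0.72, permutation p = 0.0178, adjusted 0.0977; rho = 0.58, permutation p = 0.0895, adjusted 0.164), with r = 0.37 without control 1 and control 5. For Lhx6 and Lhx8, r was 0.66 (permutation p = 0.0356, adjusted 0.130) and rho 0.57 (permutation p = 0.0888, adjusted 0.164), and r was 0.84 without control 1 and control 4. Six3 and Six6 had r = 0.60 (permutation p = 0.0692, adjusted 0.152) and rho = 0.39 (permutation p = 0.265, adjusted 0.324), with r = 0.27 without control 6 and MMS 3. The pairs that follow join different zones, and differences between correlations were not tested. Foxb1 and Nr5a1 had r = 0.58 (permutation p = 0.0857, adjusted 0.157) and rho = 0.53 (permutation p = 0.125, adjusted 0.196), with r = 0.58 without control 1 and control 6. Six6 and Foxb1, from the anterior and posterior ends of the block, had r = 0.09 (permutation p = 0.803, adjusted 0.803) and rho = 0.25 (permutation p = 0.491, adjusted 0.541), with r = 0.098 without control 4 and MMS 1.

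**Figure D5:**
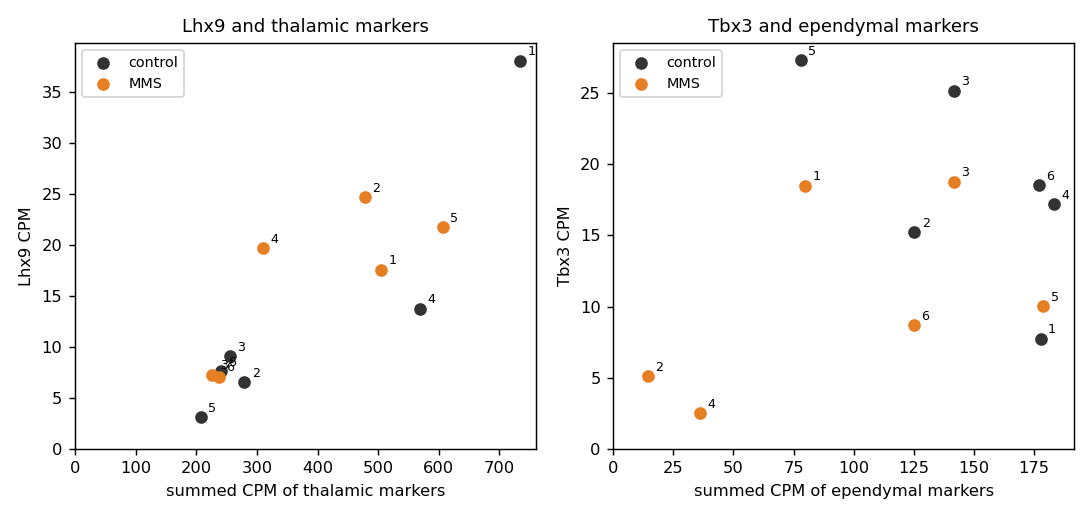
Left, Lhx9 against the summed CPM of 7 thalamic markers, and right, Tbx3 against the summed CPM of 7 ependymal markers, 1 point per library with its replicate number. Tcf7l2 varies most in the thalamic sum. The 5 libraries with the highest thalamic sums have 13.8 to 38.1 CPM of Lhx9. MMS 2 and MMS 4 are lowest in both Tbx3 and ependymal markers, but control 5, next lowest in ependymal markers (78.1 CPM), has the highest Tbx3 (27.3 CPM).

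Another 40 genes of the same developmental programme were taken from a second list. Of these 29 passed the count filter, 9 with a log2 fold change above 0 and 20 below, with a median of -0.17, and 0 passed 0.05 after adjustment in edgeR. At an unadjusted p under 0.05 there were 2 higher and 2 lower in MMS, or 4 of 29, against 9.08% of all genes (4.68% higher and 4.4% lower). Pax6, a paired box factor of dorsal diencephalon and forebrain progenitors, had a log2 fold change of 1.13 (SE 0.40) and Sp8, a zinc finger factor, of 1.201 (SE 0.52), and the edgeR adjusted p was 0.543 for both. Both were highest in MMS 2 and MMS 4, with 25.0 and 23.1 CPM of Pax6 and 19.3 and 19.7 CPM of Sp8, and lowest in control 5 (1.23 and 0.771 CPM), as Meis2 was. The other MMS libraries had 5.80 to 15.7 CPM of Pax6 and 2.55 to 10.9 CPM of Sp8. Controls reached 11.6 CPM of Pax6 and 6.65 CPM of Sp8. On leaving out 1 library, the log2 fold change of Sp8 was lowest without MMS 4 (0.91) and that of Pax6 without control 5 (0.90). Pou3f4, a POU factor, had a log2 fold change of -0.68 (SE 0.22) and Otx1, a homeobox gene of the anterior brain, of -0.61 (SE 0.24; -0.40 without control 2), again with an edgeR adjusted p of 0.543 for both. Pou3f4 was lowest in MMS 4 (11.7 CPM) and MMS 2 (12.1 CPM), where the other 10 libraries lay between 20.4 and 44.8 CPM. Without MMS 4 the log2 fold change of Pou3f4 was -0.55. For these 4 genes values without both MMS 2 and MMS 4 are not given, and fits without 1 library do not stand in for them. Spread lay above the trend in 23 of the 29, against 35.6% of all genes.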

How the data were processed

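The study made QuantSeq 3′ mRNA libraries from 6 control and 6 MMS pups, sequenced them on an Ion Proton instrument and aligned reads to mm10 in Torrent Suite. The deposited values are raw counts per gene symbol, not normalized and not pooled. Which tool counted reads, with which annotation and whether by strand, was not given in the sources used here, and 14 of the 44 factors (Six3, Six6, Arnt2, Tbx3, Foxb1, Dlx1 and Nr2f2 among those described) share exon positions with a gene on the opposite strand. Symbols turned into dates (27 rows, 0.175% of counts) were kept unnamed. Within groups, a chi-square per degree of freedom of 4.04 to 31.5 over 30 pairs of libraries showed no duplicates.

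The whole table was fitted in edgeR 4.0.16 (R 4.3.3; robust quasi-likelihood test, TMM, minimum count 10 and minimum total 15), which left 13104 genes. Two-sided p-values were adjusted by Benjamini-Hochberg, with a threshold of 0.05. Spread is the tagwise against the trended dispersion. Correlations used log2 CPM with a prior count of 2 and 100000 permutations. The edgeR step was tested on simulated data (200 genes changed 4-fold among 12931, of which 99.5% were recovered, with 6 false calls). The changed genes were above a minimum level and had the spread of the trend. The rate therefore does not apply to factors with wider spread, lower levels or smaller changes. Alternatives were run with DESeq2 1.42.0 and limma 3.58.1, other scalings and filters, a replicate block and fewer libraries. Gene positions come from GENCODE M21. Fold changes are given for the factors at an unadjusted p under 0.05, the 3 smallest p-values in each direction 24 fixed genes, and genes of the second list at an unadjusted p under 0.05, with Lhx8 and Sox14 and genes given by level added after their values were seen. The factors and lists were chosen with earlier results of these data known.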

Additional observations from a re-analysis of the deposited data

Results flagged for a closer look

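In each group the highest and lowest library of the factors given with a fold change was compared with its nearest neighbour by Dixon's criterion. Of 60 sets of 6 values, 5 held a library far from the rest, where chance gives about 3. Among controls, Otp was 98.6 CPM in control 6 with 65.5 CPM as the next value, Lhx9 was 38.1 CPM in control 1 with 13.8 CPM next, and Nr5a1 was 9.41 CPM in control 5 with 4.53 CPM next. Sp8 was 0.771 CPM in control 5, below 4.74 CPM in the next lowest control. Among MMS libraries, Lhx8 was 23.6 CPM in MMS 2 with 6.39 CPM next.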

How the results depend on the processing

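No factor passed 0.05 after adjustment in any fit. The number of factors at an unadjusted p under 0.05 (5) was 2 without MMS 2 and MMS 4 and 3 to 8 on leaving out 1 library. Over all genes the count past the threshold (0) was 1 without a count filter, 7 in DESeq2, 5 without MMS 2 and MMS 4 and 0 to 1 on leaving out 1 library, and that at an unadjusted p under 0.05 (1190) was 2039, without a filter, 674 and 700 to 1804. Spread lay above the trend in 20 factors at a mean of at least 50 counts, where 27 were tested (74.1%, against 33.2% of genes), and in 30 to 34 on leaving out 1 library. The r of Dlx1 and Dlx5 was 0.46 and became -0.27 without its 2 farthest libraries. Of 30 genes with a fold change, 9 changed sign somewhere. Without MMS 2 and MMS 4 the log2 fold change was -0.13 for Pou3f2, -0.15 for Lhx6, -0.32 for Lhx8, -0.013 for Hmx2 and 0.027 for Dlx1. On leaving out 1 library Six3 ran from -0.086 to 0.19, Arnt2 from -0.054 to 0.092, Pou3f2 from -0.074 to 0.064, Dlx5 from -0.0076 to 0.23 and Foxb1 from -0.41 to 0.079. The cause was not tested.

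Same-numbered libraries had correlations of -0.048 to 0.12 between their deviations from the group means, and 2 of 6 control libraries correlated best with their own number, so the numbers were not taken as pairs. With the replicate block 0 factors and 1 gene passed 0.05 in edgeR. In that fit 27 factors (65.9%) lay above the trend of spread, against 36.3% of genes. Depth limits the low factors most, such as Nr5a1, Hmx3 and Lhx8.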
